A study of Homo sapiens with 6 samples.

Results

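Mitotic G2/M genes were examined in SUM-159 cells carrying a stable transfection of either an empty vector or SH3GL2. They were taken as all probe sets whose only gene symbol in the array annotation was 1 of 46 genes of mitotic cyclins and kinases, the spindle checkpoint, the kinetochore, the spindle and cytokinesis. All 46 genes were measured, among 11963 genes that have an unshared probe set, by 74 of 22215 probe sets. SUM-159 is a triple negative breast cancer cell line, and SH3GL2 (Endophilin A1) is a membrane-bending protein of endocytosis. The insert or no insert was carried in pcDNA 3.1, and the RNA of each group was measured on Affymetrix GeneChip human arrays, with 3 arrays to a group. The study's methods call the transfected cells stable clones, kept under G418 selection. How many clones each group held, and whether the triplicates were separate cultures, is not given in the sources used here, so every p-value measures only the spread between these arrays. The deposited values are log2 signals, and differences are given as SH3GL2 minus empty vector on that scale.

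The label of the line and of the transfected gene was checked first. VIM, a mesenchymal marker of this kind of tumor line, had a mean log2 signal of 14.68 with empty vector and 14.58 with SH3GL2, whereas the hormone receptor genes ESR1 (6.70 with empty vector) and PGR (3.63) lay under 6.92, the 95th percentile of 79 probe sets of genes of other organs. That percentile is used below as the upper limit of signal without a transcript. The luminal genes GATA3 (9.57), KRT8 (9.75) and KRT18 (11.73) lay above it, and KRT5 (6.73) and KRT14 (4.21) below it. None of 6 immune and 4 endothelial genes reached it, and none of these 10 passed the test between the groups. Of 7 basal and mesenchymal genes, 2 fell, FN1 (fibronectin) by 0.31 (adjusted p = 0.00592 from limma) and SPARC by 0.25 (adjusted p = 0.0401), and CD44 had -0.20 (adjusted p = 0.0645). The part of these in the mitotic differences, which are of like size, was not tested. The only SH3GL2 probe set read 3.22 ± 0.04 (SD, n = 3) in the empty vector arrays and 3.26 ± 0.09 (SD, n = 3) in those of SH3GL2, both under 4.78, the median of the same reference probe sets, so it could not check the labels. The paper itself reports that its transfected cells overexpressed SH3GL2.

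Cells enter mitosis when cyclin B and cyclin-dependent kinase 1 form an active complex, and they leave it when the anaphase-promoting complex destroys cyclin B and securin. Between these steps kinesins and microtubule proteins build the spindle, kinetochores attach chromosomes to it, and a checkpoint holds anaphase until all are attached. The genes of this program are transcribed together late in the cycle, by B-MYB with the MuvB complex and by FOXM1, through CCAAT boxes bound by NF-Y and through the cell cycle genes homology region, whose usual letters are TTTGAA. In resting cells the same promoters are held silent by the DREAM complex. In a bulk RNA sample the signal of these genes follows the share of cells in G2 and mitosis as well as the RNA per such cell, and these cannot be told apart on the arrays.

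In the SH3GL2-transfected cells mitotic genes lay slightly and broadly lower. Of 74 member probe sets, 12 of 10 genes fell (limma, adjusted p under 0.05) and none rose, whereas 2.18% of all probe sets tested were called lower and 1.99% higher. None of the members rose at an unadjusted p under 0.05 in limma, as 1831 of all 22215 probe sets did. A per-probe-set analysis of variance called no member in either direction, where it called 0.347% of all probe sets, so its lack of rises tells little. The 12 were 16.2% of the members, and among all probe sets above the reference percentile, where most members lie, 3.27% were called lower and 3.17% higher. Counted by gene, at each gene's brightest probe set, 8 of 46 fell, against 2.36% of all genes called lower and 2.54% higher. The genes that fell were CDK1, CCNB2, BUB3, NDC80, KIF11, HMMR, NUSAP1, CEP55, TOP2A and MKI67. On the 12 probe sets that passed, the signals with SH3GL2 were 79.2% to 86.7% of those with empty vector. Other probe sets of BUB3 and MKI67 stood as high as 93.3% and 91.4% and did not pass. Across all members the median difference was -0.14, against 0.01 over all probe sets tested. Of the 74, 71 had a difference below 0, as did 46.1% of all probe sets, and 57 lay below the lower quartile of all differences (-0.07). Probe sets of 1 gene share their transcript and the genes share their regulation, so these counts are not of independent features, and they are given with no test.

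The differences are small, and the calls depend on how the variance is estimated. With a prior variance that ignores signal intensity, 0 of the 12 passed (adjusted p from 0.0744 to 0.168), where 1.47% of all probe sets were called lower. At an unadjusted p under 0.05, 27 of the 74 were lower in that fit. In the main fit 32 were, as were 7.62% of all probe sets. Leaving out a single array left between 1 (without empty vector replicate 3, or without SH3GL2 replicate 3) and 14 (without SH3GL2 replicate 2) member probe sets called lower, with 2 left without empty vector replicate 2 and 7 without SH3GL2 replicate 1. The shares of all probe sets called lower were 1.42% without empty vector replicate 3 and 1.33% without SH3GL2 replicate 3, so that with either array left out the 1 call among 74 members was a share close to that of all probe sets.

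**Figure D1:**
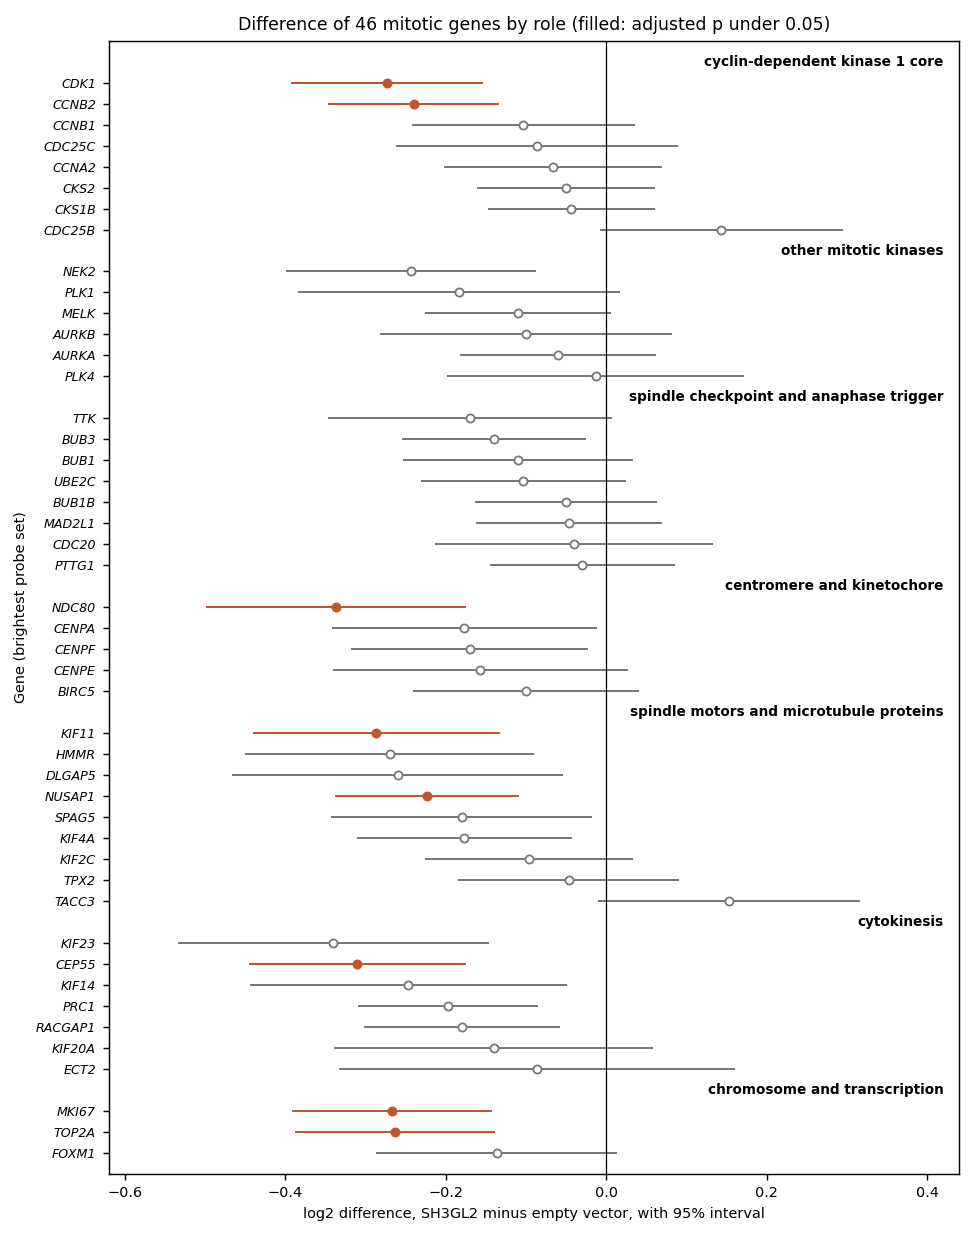
Log2 difference (SH3GL2 minus empty vector) of the 46 genes, each at its brightest probe set, with its 95% interval from limma, grouped by role. Filled points are the 8 genes with an adjusted p under 0.05, and 44 of the 46 points lie left of 0.

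The promoters of the members were searched for the 2 sequence elements named above. Of the 46 genes, 38 had a RefSeq promoter window on GRCh38.p14, running from 250 bases before to 50 bases after an annotated start. The other 8 were AURKA, BIRC5, BUB3, FOXM1, RACGAP1, TPX2, TTK and UBE2C. Both strands were searched, and a gene with several windows was counted once if any window matched. CCAAT was present for 31 of 38 genes (81.6%), compared with 39.7% of 27305 genes in the promoter table. TTTGAA was present for 26 of 38 (68.4%), compared with 18.2% of all genes. The elements were also frequent in the promoters of 76 other mitotic genes, of which 71.1% held CCAAT and 51.3% held TTTGAA. Among the genes that fell, 9 had a window, and TTTGAA was found in all 9 and CCAAT in 8 of them, NDC80 being the exception. Among the 29 other members with a window, 17 held TTTGAA and 23 held CCAAT. These are matches of letters, not shown to be bound sites, and their part in the differences was not tested. The set of genes that fell also changed with the setting and with the array left out. The windows below are 150 bases ending at the base before an annotated start, written 5′ to 3′ on the gene's strand. Where a gene had several windows, that with the most matches is shown. The genes are 5 that fell and, as the last pair, CCNB1 and CDC20, which did not pass the test. NDC80, which fell and lacks CCAAT, is not among them. Capitals mark CCAAT or its reverse complement ATTGG, and likewise TTTGAA or TTCAAA.
CDK1, chr10:60778328-60778477, plus strand: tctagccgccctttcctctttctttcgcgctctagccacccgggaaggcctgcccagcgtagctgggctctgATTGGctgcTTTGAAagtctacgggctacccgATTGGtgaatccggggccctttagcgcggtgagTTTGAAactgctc
CCNB2, chr15:59104996-59105145, plus strand: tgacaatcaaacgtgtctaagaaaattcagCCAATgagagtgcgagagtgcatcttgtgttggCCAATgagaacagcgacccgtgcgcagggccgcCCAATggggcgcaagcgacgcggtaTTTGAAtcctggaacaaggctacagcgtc
CEP55, chr10:93496462-93496611, plus strand: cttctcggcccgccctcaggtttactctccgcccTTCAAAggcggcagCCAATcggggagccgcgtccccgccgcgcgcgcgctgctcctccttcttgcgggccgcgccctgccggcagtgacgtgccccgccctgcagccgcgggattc
KIF11, chr10:92592980-92593129, plus strand: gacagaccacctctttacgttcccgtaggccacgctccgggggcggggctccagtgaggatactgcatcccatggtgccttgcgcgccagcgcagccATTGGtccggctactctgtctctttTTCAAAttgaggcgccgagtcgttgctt
HMMR, chr5:163460482-163460631, plus strand: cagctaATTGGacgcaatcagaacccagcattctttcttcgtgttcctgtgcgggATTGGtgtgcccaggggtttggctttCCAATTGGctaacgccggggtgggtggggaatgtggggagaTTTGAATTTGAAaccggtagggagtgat
CCNB1, chr5:69167000-69167149, plus strand: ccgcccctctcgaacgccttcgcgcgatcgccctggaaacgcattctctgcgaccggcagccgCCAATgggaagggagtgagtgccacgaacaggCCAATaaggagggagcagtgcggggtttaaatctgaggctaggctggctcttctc
CDC20, chr1:43358831-43358980, plus strand: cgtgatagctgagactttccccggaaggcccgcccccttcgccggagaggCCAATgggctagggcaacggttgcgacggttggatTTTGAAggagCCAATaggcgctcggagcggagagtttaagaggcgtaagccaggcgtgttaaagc

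In CCNB2, 3 CCAAT boxes stand upstream of a TTTGAA that begins 29 bases before the start. CEP55 has another layout: its only match to TTTGAA in the stretch, inverted, begins 116 bases before the start, upstream of its CCAAT box at 102. The CDK1 stretch is from 1 of the gene's 2 windows, that with the most matches. The start it ends at lies downstream of the gene's annotated first base, 60778331. It holds 2 inverted CCAAT boxes and 2 copies of TTTGAA, the nearer beginning 13 bases before that downstream start. HMMR carries TTTGAA in 2 adjoining copies, and its forward and inverted CCAAT boxes overlap in the run CCAATTGG. The CCNB1 stretch holds 2 CCAAT boxes and no TTTGAA. That of CDC20 holds both elements, and the gene's difference was -0.04.

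Of the cyclin-dependent kinase 1 core, 2 of 8 genes fell. CDK1, the kinase that drives entry into mitosis, had log2 signals of 11.72, 11.81 and 11.89 with empty vector and 11.54, 11.56 and 11.50 with SH3GL2 on its brightest probe set. The groups did not overlap, and the signal fell to 82.7% (log2 difference -0.27, 95% interval -0.39 to -0.15, adjusted p = 0.0122 from limma). The second CDK1 probe set fell by 0.30 (adjusted p = 0.0234), and on the remaining one the difference was -0.28 with SH3GL2 replicate 2 (11.23) well above replicates 1 and 3 (10.93 and 10.91) and did not pass (adjusted p = 0.0669). CCNB2, a B-type cyclin, had 12.32, 12.25 and 12.27 with empty vector and 11.98, 12.05 and 12.09 with SH3GL2, again without overlap. Its signal fell to 84.7% (log2 difference -0.24, 95% interval -0.34 to -0.14, adjusted p = 0.0129).

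The other B-type cyclin, CCNB1, did not pass. Its signals were 12.38, 12.44 and 12.48 with empty vector and 12.21, 12.48 and 12.30 with SH3GL2, where replicate 2 equalled the highest empty vector array. The difference was -0.10 (95% interval -0.24 to 0.03, adjusted p = 0.497). CCNA2, the cyclin of S phase and early mitosis, had -0.07 and -0.17 on its 2 probe sets, and the CDK1-binding proteins CKS1B and CKS2 had -0.04 and -0.05. The CDC25 phosphatases, which activate CDK1, went in both directions. CDC25C had -0.16 to -0.08 over 3 probe sets, while CDC25B had 11.32, 11.27 and 11.22 with empty vector and 11.27, 11.56 and 11.41 with SH3GL2. This was the only gene of the core with a positive difference (0.14, 95% interval -0.01 to 0.29, adjusted p = 0.343), and its groups overlapped.

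**Figure D2:**
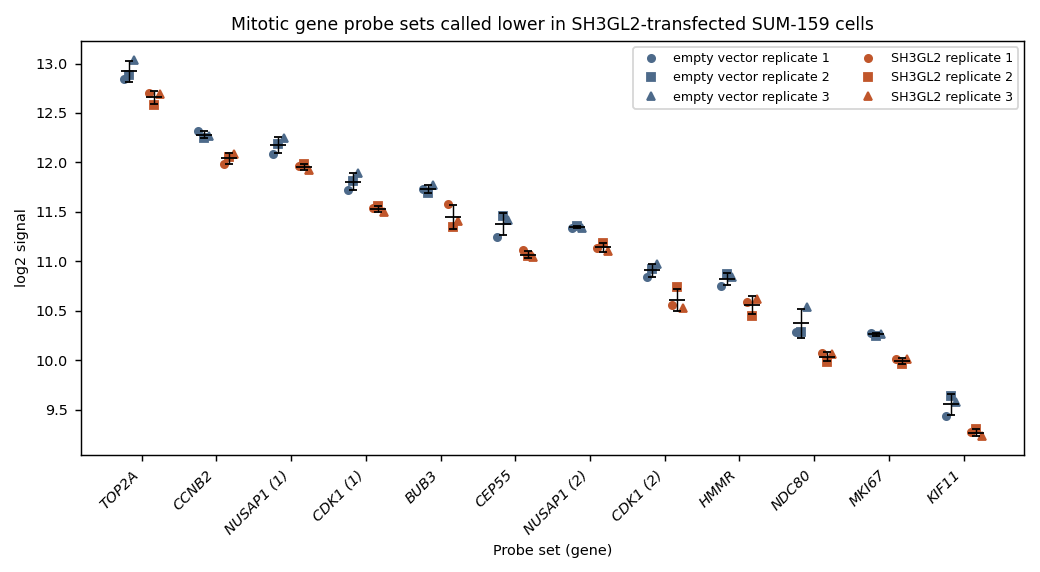
Log2 signal of the 12 member probe sets called lower, with 1 symbol per array, horizontal bars for group means and vertical bars for SD (n = 3), in the order of their empty vector means. In each of the 12 every SH3GL2 array lies below every empty vector array. The 12 were picked by their adjusted p on these same arrays, so this is no separate evidence. The marks (1) and (2) are probe sets of the same gene.

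None of 11 probe sets of the other mitotic kinases was called by limma or by the analysis of variance. In limma 2 were lower at an unadjusted p under 0.05, as were 7.62% of all probe sets. All 11 differences were below 0, from -0.25 to -0.01. NEK2, a centrosomal kinase, had the largest. Its signals were 10.43, 10.52 and 10.70 with empty vector and 10.34, 10.32 and 10.26 with SH3GL2, which do not overlap (difference -0.24, 95% interval -0.40 to -0.09, adjusted p = 0.0846), and its other probe set had -0.25. For PLK1, which acts at many steps of mitosis, the signals were 7.84, 7.90 and 7.62 with empty vector and 7.53, 7.67 and 7.61 with SH3GL2, with overlap (difference -0.18, 95% interval -0.38 to 0.02, adjusted p = 0.368). The Aurora kinases did not pass either. AURKA, the spindle pole kinase, had -0.06 at its brightest probe set (95% interval -0.18 to 0.06, adjusted p = 0.694). AURKB, the kinase of the chromosomal passenger complex, had -0.10 (95% interval -0.28 to 0.08, adjusted p = 0.649). MELK had -0.11 and PLK4, which starts centriole duplication, -0.01 at its brightest probe set.

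Among the 15 probe sets of the spindle checkpoint and the anaphase trigger, 1 fell. It belongs to BUB3, a checkpoint protein that binds BUB1 and BUBR1, and had 11.73, 11.69 and 11.77 with empty vector and 11.58, 11.35 and 11.41 with SH3GL2 (log2 difference -0.28, 95% interval -0.42 to -0.15, adjusted p = 0.0210 from limma). Its 3 other probe sets had -0.23, -0.14 and -0.10 and did not pass (adjusted p = 0.0806, 0.190 and 0.391). TTK, the kinase at the head of the checkpoint, had -0.17 (95% interval -0.35 to 0.01, adjusted p = 0.336). BUB1, BUB1B and MAD2L1, further checkpoint genes, had -0.11, -0.05 and -0.05 at their brightest probe sets. None of the genes of anaphase onset passed either. CDC20, the activator of the anaphase-promoting complex, had 12.17, 12.31 and 12.22 with empty vector and 12.02, 12.40 and 12.16 with SH3GL2, so that SH3GL2 replicates held both the lowest and the highest value. Its difference was -0.04 (95% interval -0.21 to 0.13), that of the securin gene PTTG1 -0.03 and that of UBE2C, the ubiquitin-conjugating enzyme of the complex, -0.10.

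Of 5 centromere and kinetochore genes, NDC80 fell. NDC80, the microtubule-binding subunit of the outer kinetochore, had 10.29, 10.29 and 10.54 with empty vector and 10.07, 9.98 and 10.06 with SH3GL2. Empty vector replicate 3 stood above the other two, and the groups did not overlap. The signal fell to 79.2% (log2 difference -0.34, 95% interval -0.50 to -0.18, adjusted p = 0.0220 from limma), and without empty vector replicate 3 the difference was -0.25 (adjusted p = 0.0812). The centromeric histone CENPA had -0.18, the kinetochore motor CENPE -0.16, and BIRC5 (survivin) -0.19 to -0.10 over 3 probe sets. CENPF had -0.17 and -0.23 on its 2 bright probe sets and 0.00 on a dim one at 4.75. None of these passed. A further probe set, shared by CENPA and SLC35F6 and outside the 74, had -0.16 (adjusted p = 0.249).

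The spindle motors and microtubule proteins held the most calls by count, 4 of 12 probe sets in 3 of 9 genes. Counted at the brightest probe set, 2 of these 9 genes fell, against 2 of 8 in the cyclin-dependent kinase 1 core. Of TOP2A, MKI67 and FOXM1, 2 of 3 fell when so counted. KIF11 encodes the kinesin that pushes spindle poles apart. It had 9.44, 9.64 and 9.58 with empty vector and 9.27, 9.30 and 9.23 with SH3GL2, and fell to 82.0% (log2 difference -0.29, 95% interval -0.44 to -0.13, adjusted p = 0.0386 from limma). NUSAP1, which bundles spindle microtubules, was the only gene with several probe sets to pass on all of them, with -0.22 (adjusted p = 0.0300) and -0.21 (adjusted p = 0.0395). On the brighter of these the signals were 12.09, 12.19 and 12.25 with empty vector and 11.96, 11.98 and 11.92 with SH3GL2. With each array centred on its median both lay just over the threshold (the larger adjusted p = 0.0501). HMMR, the hyaluronan-mediated motility receptor, which also binds microtubules, fell by 0.27 on the dimmer of its 2 probe sets (10.75, 10.87 and 10.84 with empty vector and 10.59, 10.45 and 10.62 with SH3GL2, adjusted p = 0.0326). The brighter one had the same difference, -0.27, with wider spread (SD of 0.15 in each group) and did not pass (adjusted p = 0.102).

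The other genes of the spindle did not pass. DLGAP5, which stabilizes kinetochore fibers, had -0.26 (adjusted p = 0.177), SPAG5 -0.18, KIF4A -0.18, KIF2C -0.10 and TPX2, an activator of AURKA, -0.05 at their brightest probe sets. TACC3, a microtubule protein of the spindle, stood apart. Its signals were 8.76, 8.82 and 8.76 with empty vector and 8.84, 9.05 and 8.91 with SH3GL2. This was the only member with every SH3GL2 array above every empty vector array, which 10.5% of all probe sets showed. Its difference of 0.15 did not pass (95% interval -0.01 to 0.32, adjusted p = 0.349).

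Of 7 cytokinesis genes, CEP55 fell and the other 6 had differences from -0.34 to -0.09 that did not pass. CEP55, which recruits the machinery of abscission to the midbody, had 11.25, 11.46 and 11.42 with empty vector and 11.11, 11.05 and 11.04 with SH3GL2. The highest SH3GL2 array lay below the lowest empty vector array, and the signal fell to 80.7% (log2 difference -0.31, 95% interval -0.44 to -0.18, adjusted p = 0.0122 from limma). KIF23, a motor of the central spindle, had the largest difference of all members, -0.34, from 9.78, 9.87 and 9.99 with empty vector to 9.61, 9.34 and 9.67 with SH3GL2. SH3GL2 replicate 2 was the lowest of these arrays, and the adjusted p of 0.0515 lay just over the threshold. Over the alternatives with all arrays its adjusted p ran from 0.0248 with a replicate block to 0.367 in the analysis of variance, with 0.132 when the prior variance ignored intensity, and it stayed over the threshold with any array left out (0.0598 to 0.193). PRC1, which bundles antiparallel microtubules at the midzone, had -0.20 (adjusted p = 0.0506). For KIF14 the difference was -0.25, for RACGAP1 -0.18, for KIF20A -0.14 and for ECT2, the exchange factor that activates RhoA at the cleavage furrow, -0.09.

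TOP2A and MKI67 fell, and FOXM1 did not pass. TOP2A, the topoisomerase that untangles sister chromatids, had 12.84, 12.88 and 13.04 with empty vector and 12.70, 12.58 and 12.69 with SH3GL2 (log2 difference -0.26, 95% interval -0.39 to -0.14, adjusted p = 0.0199 from limma), and -0.23 on its other probe set (adjusted p = 0.114). MKI67 encodes Ki-67, the surface coat of mitotic chromosomes and a common proliferation marker. Its brightest probe set had 10.28, 10.24 and 10.26 with empty vector and 10.01, 9.96 and 10.01 with SH3GL2, with an SD of 0.02 and 0.03. The signal was 83.1% of that with empty vector (log2 difference -0.27, 95% interval -0.39 to -0.14, adjusted p = 0.0181). The 3 other MKI67 probe sets had -0.21, -0.13 and -0.13 and did not pass. The groups overlapped on none of the 4, and 8.97% of all probe sets likewise had every SH3GL2 array below every empty vector array. FOXM1, a transcription factor of the program, had 9.61, 9.52 and 9.59 with empty vector and 9.35, 9.53 and 9.43 with SH3GL2 (difference -0.14, 95% interval -0.29 to 0.01, adjusted p = 0.370), with SH3GL2 replicate 2 inside the range of the empty vector arrays.

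Probe sets of the same gene mostly pointed the same way. Of 15 genes with more than 1 probe set, 14 had differences below 0 on every one. The exception was BUB1, with 4 below 0 and 1 at 0.04, the latter at a mean signal of 4.22, under the reference median. In all, 9 member probe sets of 5 genes (AURKA, BUB1, CDC25C, CENPF and PLK4) lay under the reference percentile, at 3.38 to 6.53, and none was called. Their low signal bounds what they can show. Each of the 46 genes had at least 1 probe set above that percentile.

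Array by array, the members of both groups separated but not cleanly. Relative to each gene's empty vector mean, the median over the 46 genes was -0.06, 0.00 and 0.05 on empty vector replicates 1, 2 and 3 and -0.21, -0.10 and -0.14 on SH3GL2 replicates 1, 2 and 3. All SH3GL2 medians therefore lay below all empty vector medians, and SH3GL2 replicate 2 and empty vector replicate 1 lay nearest each other. Over all probe sets tested the same medians lay between 0.00 and 0.02 on every array. Of the 74 probe sets, 30 had every SH3GL2 array below every empty vector array, as did 8.97% of all probe sets and 11.3% of those above the reference percentile. The smallest two-sided p of an exact permutation test with 3 arrays against 3 is 0.1, so no probe set could pass on that test alone.

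**Figure D3:**
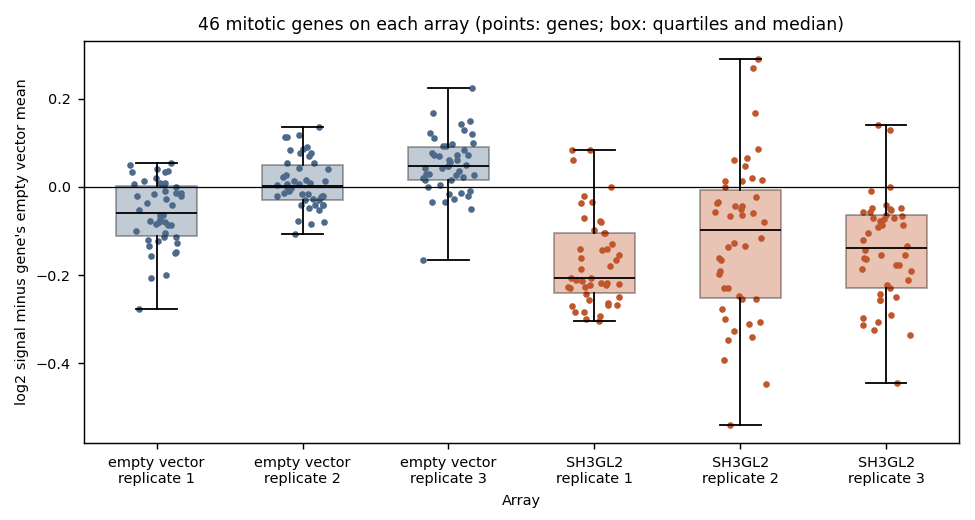
Log2 signal of the 46 genes on each array minus the gene's empty vector mean, at the brightest probe set, with points for genes, boxes for quartiles, a line for the median and whiskers to the lowest and highest gene. The SH3GL2 medians of -0.21, -0.10 and -0.14 lie below the empty vector medians of -0.06, 0.00 and 0.05.

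SH3GL2 replicate 2 differed from its fellows in opposite directions at different members. It was the highest SH3GL2 array at 34 of the 74 probe sets and the lowest at 24. Replicate 1 was the highest at 22 and the lowest at 29, and replicate 3 the highest at 14 and the lowest at 18. The signal of replicate 2 exceeded the mean of replicates 1 and 3 by 0.34 at KIF20A, 0.33 at DLGAP5 and 0.31 at CDC20. It also lay above that mean at CCNB1 and at all 3 probe sets of BIRC5. At KIF23, ECT2, CENPE, TOP2A and both HMMR probe sets it was the lowest of the 3. The part of this array in the differences was not tested beyond leaving it out, which gave 14 calls.

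Other genes of the cell cycle were set beside the members, each at its brightest probe set. Of 74 further mitotic genes measured, 2 fell by limma and none rose, where 2.36% of all genes were called lower. They were NCAPG2, a condensin II subunit (8.59, 8.41 and 8.54 against 7.96, 8.14 and 8.08, difference -0.45, adjusted p = 0.00635), and HJURP, the chaperone of CENPA (10.23, 10.10 and 10.30 against 9.88, 9.78 and 9.96, difference -0.34, adjusted p = 0.0178). In the analysis of variance none passed in either direction. At an unadjusted p under 0.05 in limma 12 were lower and 3 higher, where 904 of all 11963 genes were lower and 1189 higher. The median difference of the 74 was -0.09, and 57 lay below 0, as did 44.2% of all genes. The 2 lower genes are a share close to that of all genes, and 1 was left without empty vector replicate 1 or 3 and 4 were called without SH3GL2 replicate 2.

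Genes of DNA replication and the G1/S transition did not follow the mitotic genes. Their median difference was 0.10, with 44 of 59 above 0, while the median of all genes was 0.02, with 6545 of 11963 above 0. Of the 59, 1 was called lower and 2 higher by limma, where 2.36% of all genes were called lower and 2.54% higher. CCND2, a D-type cyclin, fell from 7.86, 7.84 and 7.94 to 7.26, 7.31 and 7.21 (difference -0.62, adjusted p = 4.87e-04). MCM2, a subunit of the replicative helicase, rose from 9.81, 9.77 and 9.80 to 10.14, 10.68 and 10.23, with SH3GL2 replicate 2 the highest (difference 0.56, adjusted p = 0.0112), and RFC4, a clamp loader subunit, rose by 0.28 (adjusted p = 0.0445). Of these 2 higher calls, the list had 0 with a prior variance that ignores intensity or without empty vector replicate 2, and 1 without empty vector replicate 1 or SH3GL2 replicate 3. On SH3GL2 replicates 1, 2 and 3 the median of these 59 genes relative to empty vector was 0.04, 0.17 and 0.09, and on the same arrays that of the 46 mitotic genes was -0.21, -0.10 and -0.14. The difference between the lists was not tested.

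**Figure D4:**
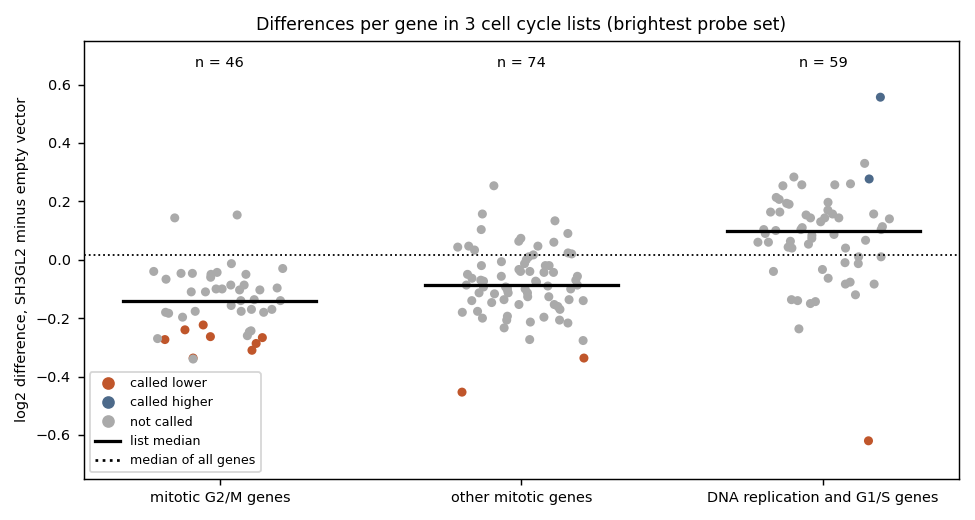
Log2 difference (SH3GL2 minus empty vector) per gene in 3 lists, with orange points called lower, blue points called higher, grey points not called, thick bars at list medians and a dotted line at the median of all genes. The medians are -0.14 for the mitotic G2/M genes, -0.09 for other mitotic genes and 0.10 for DNA replication and G1/S genes.

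Of 31 measured regulators of cell cycle transcription and cell cycle brakes, 3 fell and 1 rose. Of all genes, 2.36% were called lower and 2.54% higher. MYBL1 (A-MYB), a relative of the B-MYB factor that drives mitotic genes, fell from 9.47, 9.41 and 9.67 to 8.90, 8.41 and 8.79 (difference -0.82, adjusted p = 9.38e-04 from limma), a larger change than that of any member. TFDP2, a dimer partner of E2F factors, rose from 9.11, 9.01 and 9.18 to 9.58, 9.66 and 9.72 (difference 0.55, adjusted p = 4.83e-04). The antiproliferative gene BTG1 fell by 0.38 (adjusted p = 0.00977) and the stress gene GADD45B by 0.27 (adjusted p = 0.0235). The groups overlapped at none of these 4 genes, which were named because they were called on the same arrays. The median difference of the 31 was -0.01. MYBL2, which encodes B-MYB itself, had a difference of 0.06 and did not pass (adjusted p = 0.822 from limma). The NF-Y genes NFYA, NFYB and NFYC had -0.01, -0.04 and -0.01 and did not pass either.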

How the data were processed

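The 6 arrays were Affymetrix GeneChip human expression arrays, 3 per group. The arrays were scanned and analysed with GCOS software. MAS5 is named, with no version, in the submitters' processing notes, and the values the authors deposited are log2 signals. Whether these are MAS5 signals was not settled, and whether the arrays were scaled to each other is not given in the sources used here; their medians ran from 6.97 to 7.02. The base of the logarithm was inferred from the range (2.82 to 15.31), and the percentages of signal rest on it.

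Values were used as deposited. Of 22277 probe sets, 62 controls were left out. Groups, taken from the sample titles, were compared by limma 3.58.1 under R 4.3.3. The test was two-sided, the prior variance of eBayes followed intensity, and p-values were adjusted by Benjamini and Hochberg across the 22215 remaining probe sets, with calls made under 0.05. Where 1 probe set stands for a gene, it is that with the highest mean. Errors are SD over 3 arrays, and intervals are 95% intervals of limma. Precision is limited by the few arrays and by signal over background: 51.2% of probe sets exceeded the reference percentile. The reference list named 65 genes, of which 52 had a probe set of their own.

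The members and lists were chosen with earlier results of these data known. Named were all members called, the member of each role with the largest difference, MKI67, FOXM1, CDK1, CCNB1, AURKA, AURKB and PLK1, and up to 4 called genes of each other list. Other members are given by their differences, and CDC25B, TACC3, CDC20, PRC1 and DLGAP5 were chosen after their values were seen. So were MYBL2, NFYA, NFYB and NFYC among the regulators. The fits were tested on simulated data. Deviations from the group means correlated at -0.01, 0.13 and 0.15 between arrays sharing a number, so the numbers were not taken as pairs. Python 3.11.15 and matplotlib 3.10.9 made the figures.

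Alternatives were quantile normalization, centring on the median, a floor at the reference median, 16 added to the linear signal, brighter probe sets only, eBayes without trend or with a robust prior, a replicate block, a per-probe-set analysis of variance, leaving out each array, an adjusted p under 0.01, the mean of a gene's probe sets and leaving out probe sets named _x_at.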

Additional observations from a re-analysis of the deposited data

How the results depend on the processing

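The median difference of the members kept its sign and stayed between -0.17 and -0.13 under the alternatives run. Of the 74 member probe sets, 66 to 71 lay below 0 in the fits that kept all of them. None was called higher in any (limma, 0 at an unadjusted p under 0.05 with all arrays). The 12 calls depended more on the setting. The 12 member probe sets lower were 14 with quantile normalization, 10 with arrays centred and 12 with 16 added, and 15 with a replicate block, where the 12 kept their calls. Of all probe sets, these settings called 2.47%, 2.18%, 2.16% and 2.58% lower, against 2.18% in the main fit. The member probe sets lower were 3 with the floor, 0 without trend, 0 in the analysis of variance and 0 at an adjusted p under 0.01, settings that called 0.720%, 1.47%, 0.198% and 1.15% of all probe sets lower. The 8 member genes lower were 1, 0, 0 and 0 under the same 4 settings. Leaving out 1 array gave 1 to 14 member probe sets lower and 1 to 10 member genes lower. The lowest counts came without empty vector replicate 3 or SH3GL2 replicate 3 (1 each for probe sets) and without empty vector replicate 2 (2), where 1.42%, 1.33% and 1.35% of all probe sets were called lower. The highest came without SH3GL2 replicate 2, where 1.97% were. Why the floor removed calls at bright probe sets was not tested.

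In the further lists, the 2 other mitotic genes lower were 0 with the floor, 1 without trend, 0 in the analysis of variance, 1 at the stricter threshold and 1 to 4 without an array. The 2 replication genes higher were 1 with arrays centred, 0 with the floor, without trend, in the analysis of variance and at the stricter threshold, and 0 to 2 without an array. Of the regulators, the 3 lower were 0 with the floor, 1 without trend and 0 in the analysis of variance, and the 1 higher was 0 in the analysis of variance and 2 with a replicate block. In either direction, the main fit called 4.17% of all probe sets, centring 3.75% and the replicate block 4.86%. The floor called 1.31%, the fit without trend 2.69%, the analysis of variance 0.347%, the stricter threshold 2.01% and the fits without 1 array 2.16% to 3.61%.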
